A study of Mus musculus with 10 samples.

Results

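The immunity-related GTPases (IRGs) are large GTP-binding proteins that mouse cells make in response to interferons. Regulatory members (the GMS proteins, which have a methionine in the first nucleotide-binding loop) sit on the cell's own membranes and hold the effector members there in their inactive, GDP-bound state. Effector members (the GKS proteins, which have a lysine at that place) load onto vacuoles that enclose certain intracellular pathogens and break them open, and in the lung they are known mainly from infection. Members were chosen by gene symbol: Irgm1, Irgm2 and Igtp as regulatory and Iigp1, Ifi47, Tgtp1, Tgtp2 and Gm4841 as effector. All 8 were found among the 54532 genes of the expression table, and all 8 reached the mean FPKM of 0.1 that was required for testing (FPKM, the fragments on a gene scaled by its length and by the size of the library).

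The samples were whole lungs of wild-type C57BL/6J mice at P30, from 5 mice with increased pulmonary flow (IPF) and 5 sham-operated mice. In the IPF group an aortocaval fistula, a passage between the abdominal aorta and the inferior vena cava, had been made at P7 by a needle puncture, so that more blood returned to the right heart and passed through the lungs. The sham group had the same abdominal operation without the puncture. Isoflurane anaesthesia and buprenorphine after surgery are described for the operated pups of both groups, and the comparison asks which lung genes differed after weeks of raised flow. Between 15483046 and 19026843 reads per sample lay on genes. In whole lung, more cells of a type and more RNA per cell cannot be told apart.

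Lung identity was clear, with alveolar type 2 markers summing to 12755 to 20198 FPKM. Xist and 4 Y-linked genes divided the samples exactly by group, although pups of both sexes are described. Xist averaged 34.1 FPKM in IPF and 0.0493 FPKM in sham lungs, and the 4 Y-linked genes were at 0 in every IPF lung. By these genes the IPF lungs were female and the sham lungs male, so sex and operation cannot be told apart. Of 14 circadian clock genes, 3 were higher and 10 lower in IPF, with a summed level of 93.8 to 171 FPKM in IPF and 303 to 360 FPKM in sham lungs, and its part in the IRG values was not tested. Replicate 1 of the sham group stood apart, with a mean Spearman correlation of 0.912 with the other samples, where the others had 0.929 to 0.932. The counts of members, of other IRG genes and of the pathway lists were also taken without that library and without IPF replicate 5, which was highest in its group for 7 of the 8 members.

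The classes are named for 1 residue of the nucleotide-binding loop, which is why the following coding bases are shown. They were read from the longest GENCODE vM39 coding sequence of each gene, and capitals mark the codon of that residue, ATG for methionine and AAG for lysine.
Irgm1: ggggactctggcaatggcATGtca
Irgm2: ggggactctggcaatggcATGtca
Igtp: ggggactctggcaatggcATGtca
Ifi47: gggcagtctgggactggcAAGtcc
Tgtp1: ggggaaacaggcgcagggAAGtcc
Tgtp2: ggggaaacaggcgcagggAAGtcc
The stretch was identical in the 3 regulatory genes, at codon 89 of Irgm1 and Irgm2 and codon 97 of Igtp. The lysine codon was codon 87 of Ifi47, codon 69 of Tgtp1 and Tgtp2, codon 82 of Iigp1 and codon 83 of Gm4841. Whole coding sequences of regulatory pairs were 64.1% to 67.9% identical, while a regulatory and an effector gene shared 50.5% to 54.3% of aligned positions. Tgtp1 and Tgtp2 were 99.7% identical, with 4 mismatches in 1248 bases.

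The 6 genes printed above lie on chromosome 11 in 2 stretches of the GRCm38 build, which the expression table uses. Irgm1 (chr11:48861968-48871683), Tgtp1 (chr11:48985327-48994172) and Tgtp2 (chr11:49057194-49064206) are on the minus strand, next to Ifi47 (chr11:49076587-49096974) on the plus strand. Igtp (chr11:58199556-58207591) and Irgm2 (chr11:58199618-58222782) follow on the plus strand. All 8 members are listed as protein-coding.

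Promoters of the members are shown because all the members moved together and interferon signalling acts through short elements close to the start. Interferon gamma signalling acts through the gamma-activated site (GAS, searched as TTCNNNGAA), and IRF factors bind the interferon-stimulated response element (ISRE, searched as GAAA, any 2 bases and GAAA again). RefSeq promoters (GRCm38.p6, from 250 bases before to 50 bases after the start) were matched for 6 of the 8 members, and both strands were searched. The last 100 bases before the RefSeq start are printed 5′ to 3′ on the gene's own strand, with matches to either element in capitals.
Igtp, chr11:58199456-58199555, plus: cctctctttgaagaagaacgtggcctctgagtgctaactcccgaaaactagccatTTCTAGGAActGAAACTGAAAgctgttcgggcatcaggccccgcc
Irgm2, chr11:58214877-58214976, plus: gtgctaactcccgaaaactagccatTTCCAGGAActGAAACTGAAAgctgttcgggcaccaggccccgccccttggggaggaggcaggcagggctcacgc
Tgtp1, chr11:48992247-48992346, minus: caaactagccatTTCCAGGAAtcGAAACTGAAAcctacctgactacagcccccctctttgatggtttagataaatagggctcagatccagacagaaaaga
Tgtp2, chr11:49064213-49064312, minus: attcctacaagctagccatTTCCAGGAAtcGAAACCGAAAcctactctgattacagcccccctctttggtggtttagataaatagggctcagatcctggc
Irgm1, chr11:48871421-48871520, minus: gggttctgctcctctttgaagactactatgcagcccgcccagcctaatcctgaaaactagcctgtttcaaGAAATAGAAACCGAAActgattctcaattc
In Igtp, Irgm2, Tgtp1 and Tgtp2, a GAS match was followed by an ISRE match with 2 bases between them. The first base of the ISRE match lay 34, 64, 77 and 70 bases before the start, in that order of genes. Irgm1 had 2 overlapping ISRE matches, 30 and 24 bases before its start, and no GAS match in its window. The window of Ifi47 held neither set of letters. Over 32851 RefSeq promoters of the same length, 3.44% held an ISRE match and 8.3% a GAS match. A match is a description of letters and was not tested as a binding site.

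All 8 members were higher in IPF than in sham lungs at an adjusted p under 0.05 (limma on log2(FPKM + 0.1), Benjamini-Hochberg over 20448 genes), and 0 were lower. Of all genes tested, 5.85% passed this limit, 3.71% higher and 2.14% lower in IPF. For every member the lowest IPF sample lay above the highest sham sample, which held for 4.52% of all genes, and the groups were apart in either direction for 7.29%. The median log2 difference was 0.98 over the members (range 0.71 to 1.21) and 0.00 over all genes. Of the members, 3 also passed a log2 difference above 1, where 0.68% of all genes did so in this direction and 0.46% in the other. Without sham replicate 1 and IPF replicate 5, 7 members stayed under the limit and 1, Tgtp1, passed both, with Tgtp2 and Ifi47 at log2 differences of 0.99 and 0.95. The count past both limits was 0 with a pseudocount of 1, and 5 without IPF replicate 1 or without sham replicate 5.

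**Figure D1:**
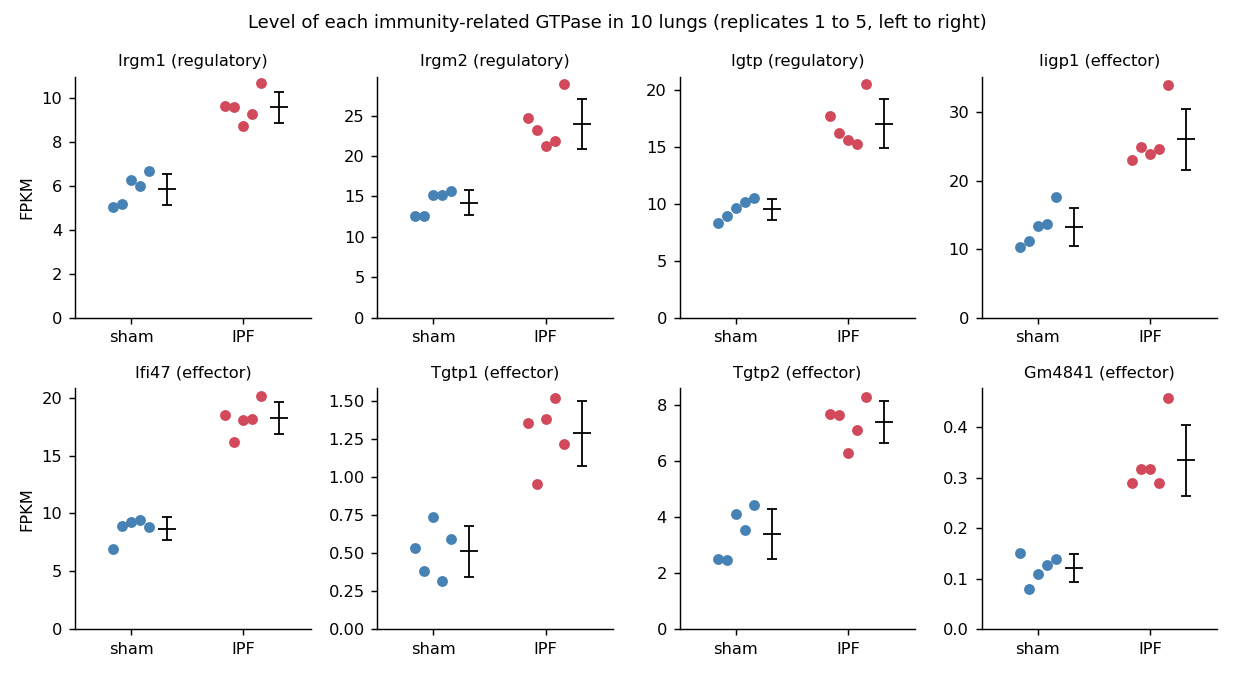
Level in FPKM (vertical axes, from 0) of the 8 members in each of 5 sham (blue) and 5 IPF (red) lungs, with points in order of replicate number and bars for mean ± SD. In every panel the red points lie above the blue ones, from Iigp1 at 22.9 to 33.9 FPKM in IPF down to Gm4841 at 0.290 to 0.458 FPKM.

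Among the regulatory members, Irgm1, which acts on Golgi and mitochondrial membranes, measured 9.63, 9.57, 8.73, 9.27 and 10.7 FPKM in IPF replicates 1 to 5. In sham replicates 1 to 5 it measured 5.03, 5.18, 6.26, 5.99 and 6.69 FPKM. The groups did not overlap, and replicate 5 was the highest in each. The means were 9.57 ± 0.706 and 5.83 ± 0.709 FPKM (SD, n = 5 each), a ratio of 1.64. The log2 difference was 0.71 (SE 0.089, limma adjusted p = 0.00143).

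Irgm2, which keeps effectors inactive at the Golgi, measured 24.8, 23.2, 21.3, 21.8 and 29.0 FPKM in the IPF samples and 12.6, 12.5, 15.2, 15.1 and 15.7 FPKM in the sham samples. IPF replicate 5 was the highest of all, and sham replicates 1 and 2 were the lowest. The means were 24.0 ± 3.07 and 14.2 ± 1.52 FPKM (SD, n = 5 each), a ratio of 1.69 and a log2 difference of 0.75 (SE 0.097, limma adjusted p = 0.00179).

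Igtp, also called Irgm3, which sits on the endoplasmic reticulum and lipid droplets, measured 17.7, 16.2, 15.6, 15.3 and 20.5 FPKM in IPF and 8.28, 8.96, 9.64, 10.2 and 10.5 FPKM in sham samples. The IPF values again stood clear of the sham values, with replicate 5 at the top of both groups. Its ratio of 1.79 was the largest of the regulatory members, from means of 17.1 ± 2.16 and 9.52 ± 0.909 FPKM (SD, n = 5 each). The log2 difference was 0.83 (SE 0.094, limma adjusted p = 0.000811). As the genes are listed, the span of Irgm2 covers 99.2% of that of Igtp on the same strand, whereas RefSeq starts Irgm2 at 58214977, beyond the end of Igtp, and how overlapping reads were shared is not given in the sources used here. Of 100-base windows of Igtp transcripts, 3.06% also occurred in Irgm2.

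Among the effector members, Iigp1 (Irga6), the best-studied effector and one of the first to reach the vacuole, measured 22.9, 24.9, 24.0, 24.6 and 33.9 FPKM in the IPF samples. The sham samples measured 10.3, 11.2, 13.4, 13.7 and 17.6 FPKM. Replicate 5 of each group was well above the rest of its group, and the groups still did not overlap. The gene lies on chromosome 18 (chr18:60376029-60392627, plus strand). The means were 26.1 ± 4.46 and 13.2 ± 2.81 FPKM (SD, n = 5 each), a ratio of 1.97, and the log2 difference was 0.98 (SE 0.146, limma adjusted p = 0.00336).

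Ifi47 (Irgd) measured 18.5, 16.2, 18.1, 18.2 and 20.2 FPKM in IPF and 6.92, 8.93, 9.29, 9.44 and 8.83 FPKM in sham samples. Its samples were close together within each group except for the low sham replicate 1. The means were 18.2 ± 1.40 and 8.68 ± 1.02 FPKM (SD, n = 5 each), a ratio of 2.10. With a log2 difference of 1.07 (SE 0.090) it had the smallest adjusted p of the members (limma, 0.0001).

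Tgtp1 and Tgtp2 (Irgb6), which bind the vacuole membrane early, are a pair of near-copies. Tgtp2 measured 7.70, 7.66, 6.30, 7.13 and 8.31 FPKM in IPF and 2.50, 2.47, 4.11, 3.54 and 4.42 FPKM in sham samples, with sham replicates 1 and 2 low. The means were 7.42 ± 0.752 and 3.41 ± 0.901 FPKM (SD, n = 5 each), a ratio of 2.18, with a log2 difference of 1.13 (SE 0.164, limma adjusted p = 0.00297). Tgtp1 was far lower, at 1.36, 0.955, 1.39, 1.52 and 1.22 FPKM in IPF and 0.530, 0.383, 0.738, 0.318 and 0.593 FPKM in sham samples. Its highest and lowest samples were other ones than those of Tgtp2, and it rested on 51 to 89 reads per IPF sample and 17 to 38 per sham sample. The log2 difference of Tgtp1 was 1.21 (SE 0.208, limma adjusted p = 0.00695), from means of 1.29 ± 0.216 and 0.513 ± 0.168 FPKM (SD, n = 5 each), and it was 0.60 at a pseudocount of 1.

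The split between the copies is uncertain, since 74.7% of 100-base windows of Tgtp1 transcripts and 76.8% of those of Tgtp2 occurred in other genes, mostly in each other. Added up, they gave 8.71 ± 0.679 FPKM in IPF and 3.92 ± 1.00 FPKM in sham lungs (SD, n = 5 each), without overlap. The log2 difference of the sum was 1.17 (SE 0.153, limma adjusted p = 0.00186). Gm12185 overlaps 78.0% of the span of Tgtp1, and Ifi47, Tgtp1 and Tgtp2 lie inside the span of Olfr56, an olfactory receptor gene at 0.784 ± 0.220 FPKM in IPF and 0.401 ± 0.136 FPKM in sham lungs.

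Gm4841 (chr18:60268301-60273267, minus strand), a little-studied effector-type gene, was the lowest member at 0.290, 0.317, 0.317, 0.290 and 0.458 FPKM in IPF samples. In sham samples it measured 0.150, 0.0786, 0.110, 0.127 and 0.139 FPKM. It stood on 14 to 23 reads per IPF sample and 4 to 7 reads per sham sample, so counting error is a large part of its spread. The log2 difference was 0.97 (SE 0.218, limma adjusted p = 0.0239), from means of 0.334 ± 0.0705 and 0.121 ± 0.0278 FPKM (SD, n = 5 each), a ratio of 2.77. The log2 difference of Gm4841 moved with the scale, to 0.25 at a pseudocount of 1, 1.41 at 0.01 and 1.40 by voom on the recovered reads. Leaving out IPF replicate 2 (adjusted p = 0.0584), IPF replicate 4 (0.0514), sham replicate 2 (0.0585) or sham replicate 3 (0.0552) ended its call by limma, as did leaving out sham replicate 1 with IPF replicate 5 (0.0561). A fit with the replicate number as a block also ended it, at the largest limma adjusted p of the alternatives (0.0702). A two-sided exact permutation test gave p = 0.00794 for each of the 8 members (n = 5 each), the smallest it can give here.

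**Figure D2:**
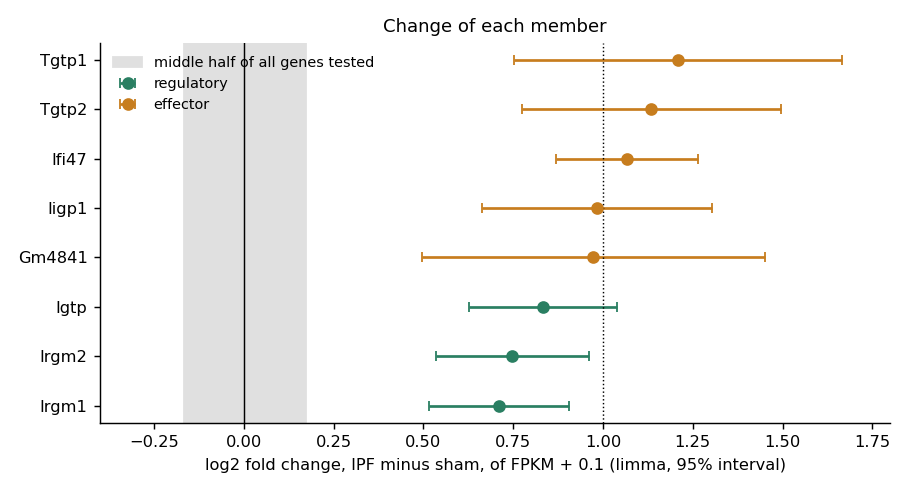
Log2 difference, IPF minus sham, of FPKM + 0.1 for each member (limma estimate, bars for the 95% interval), with the quartile range of all genes tested in grey and a dotted line at 1. The regulatory members lie at 0.71 to 0.83 and the effector members at 0.97 to 1.21, with intervals that overlap between the classes.

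Levels per kilobase set the members in a similar order in both groups. In IPF lungs Iigp1 and Irgm2 were the highest and did not differ beyond their spread, with Iigp1 above Irgm2 in 4 of 5 samples. Ifi47 and Igtp came next and overlapped as well, followed by Irgm1, Tgtp2, Tgtp1 and Gm4841, each clear of the one before it. In sham lungs Irgm2 was above Iigp1 in 4 of 5 samples and Igtp above Ifi47 in 5 of 5, while the ranges of each pair overlapped, as did those of Iigp1 and Igtp. Summed over the 8 members, the level was 104.0 ± 11.6 FPKM in IPF and 55.5 ± 7.34 FPKM in sham lungs (SD, n = 5 each).

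The regulatory members had smaller log2 differences between the groups than the effector members, a contrast given here without a test. The 3 regulatory genes had log2 differences of 0.71 to 0.83 with a median of 0.75, none past 1. The 5 effector genes had 0.97 to 1.21 with a median of 1.07, and Ifi47, Tgtp1 and Tgtp2 were past 1. Irgm1, Irgm2 and Igtp together made up 48.7% ± 1.37 of the summed FPKM of the family in IPF lungs (47.3% to 50.6%) and 53.4% ± 1.76 in sham lungs (51.1% to 56.0%), so the groups did not overlap.

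**Figure D3:**
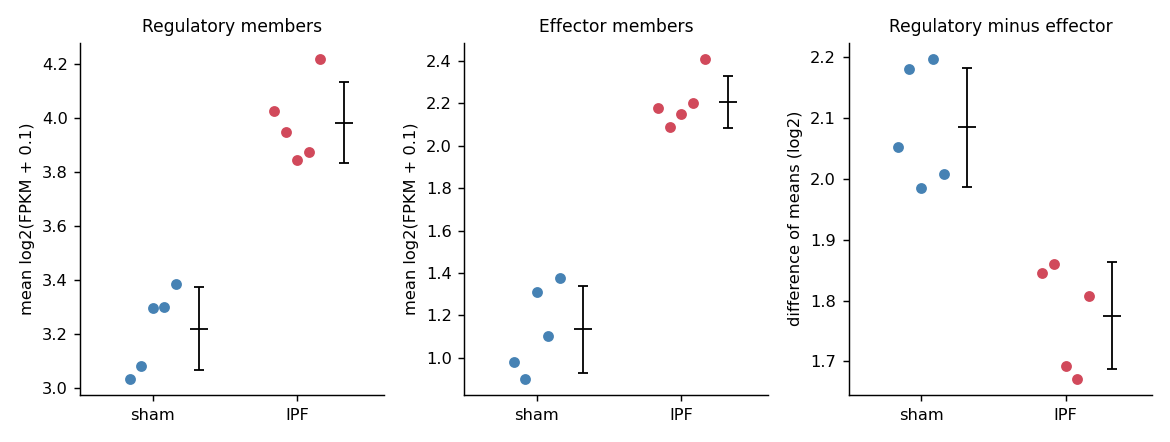
Mean log2(FPKM + 0.1) per sample of the 3 regulatory members (left) and the 5 effector members (middle), and their difference (right), for sham (blue) and IPF (red) lungs, with bars for mean ± SD. Both class means are higher in IPF, and the difference between the classes is lower, at 1.67 to 1.86 in IPF and 1.99 to 2.20 in sham samples. The vertical axes do not start at 0.

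The mean log2 level of the regulatory genes was 3.98 ± 0.149 in IPF and 3.22 ± 0.153 in sham lungs. That of the effector genes was 2.21 ± 0.122 in IPF and 1.13 ± 0.206 in sham lungs (SD, n = 5 each). Within a sample, the regulatory mean exceeded the effector mean by 1.78 ± 0.0876 in IPF and by 2.09 ± 0.0981 in sham lungs, a change of -0.31 in the gap. The change was -0.04, with overlapping groups, when the pseudocount was 1, which compresses the low genes Tgtp1 and Gm4841. With only the effectors of at least 1 FPKM (Iigp1, Ifi47 and Tgtp2) it was -0.30 with the pseudocount of 0.1 and -0.25 with the pseudocount of 1, and neither pair of groups overlapped. The log2 ratio of the summed FPKM of regulatory to effector genes was -0.08 ± 0.0789 in IPF and 0.20 ± 0.102 in sham lungs, a change of -0.27.

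The members varied together from lung to lung within a group to different degrees. Deviations from the group means over the 10 samples correlated with r of 0.86 to 0.96 for the 3 regulatory pairs and with r of -0.04 to 0.81, median 0.31, for the 10 effector pairs, of which 7 include the low genes Tgtp1 or Gm4841. The 3 pairs among Iigp1, Ifi47 and Tgtp2 had r of 0.52 to 0.81. Over all 28 pairs the median r was 0.59, and the highest, 0.97, joined Irgm1 and Tgtp2. These points share libraries and depth, and Igtp and Irgm2 share part of their span. IPF replicate 5 and sham replicate 5 lay highest, with mean deviations of 0.22 and 0.21 on the log2 scale, and sham replicates 1 and 2 lowest, with -0.17 and -0.20.

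**Figure D4:**
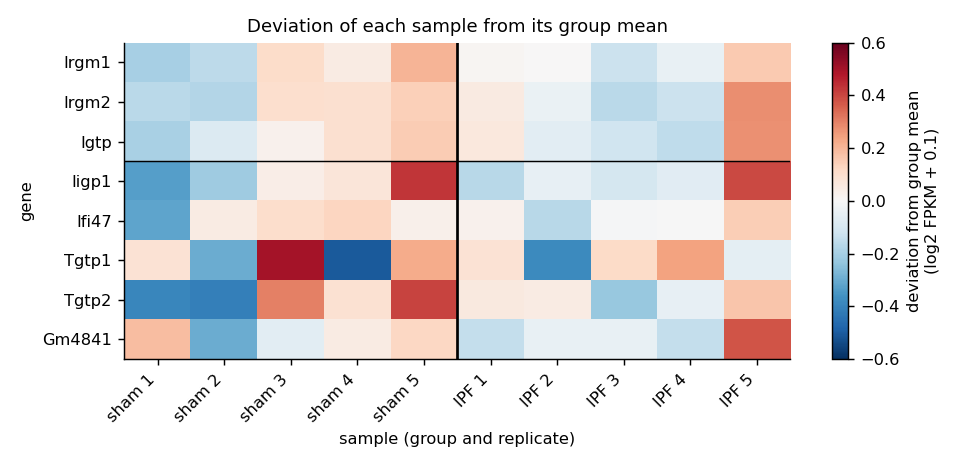
Deviation of each sample (columns, named by group and replicate) from its group mean in log2(FPKM + 0.1) for each member (rows), red above and blue below. The columns of replicate 5 are mostly red in both groups, sham replicates 1 and 2 are mostly blue, and the row of Tgtp1 has a pattern unlike the rows of the regulatory members.

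By the same measure, the protein-coding genes most like the mean of the members within groups, of 12062 compared, were Retreg2 (r = 0.95), Zwint (0.90), Ahcy (0.89), Nsun2 (0.89) and Sh3bp5l (0.88), over 10 samples. None of these 5 passed the limma test between the groups, with adjusted p from 0.392 to 0.916. Genes of the type I interferon response had a median r of 0.66 with the members (-0.82 to 0.82) and those of type I signalling 0.42. The median was 0.26 for interferon gamma signalling, 0.05 for the interferon gamma response and 0.21 for the guanylate-binding proteins. Neutrophil markers had 0.60, B-cell markers -0.30 and all genes 0.10.

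Of 9 further genes of the IRG family, 7 were tested and 2 were higher in IPF. Gm4951, an effector-type relative, was at 2.55 ± 1.14 FPKM in IPF and 1.05 ± 0.124 FPKM in sham lungs, a log2 difference of 1.12 (limma adjusted p = 0.0167). Gm12185 had a log2 difference of 0.72 (adjusted p = 0.0303) and shares span with Tgtp1. Irgq, a divergent member that is not known as interferon-inducible, was at 7.14 ± 0.667 and 7.41 ± 0.477 FPKM, a log2 difference of -0.05 (adjusted p = 0.751). The median of the 7 was 0.47. The count was 1 with no filter on low values, and 1 without any one of IPF replicates 1 and 2 and sham replicates 2, 3 and 4.

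The guanylate-binding proteins, a related family of interferon-induced GTPases that act on the same vacuoles, were higher for 8 of 11 genes tested, with a median log2 difference of 0.88. Gbp6 rose most, from 0.627 ± 0.127 FPKM in sham to 2.14 ± 0.0914 FPKM in IPF lungs (log2 difference 1.64, limma adjusted p = 7.57e-05). Gbp4 had a log2 difference of 1.02 (adjusted p = 0.000984) and Gbp9 of 0.60 (adjusted p = 0.000811). Gbp10 and Gbp11 did not pass, at log2 differences of 1.01 (adjusted p = 0.053) and 1.06 (adjusted p = 0.0786), both below 0.3 FPKM in the mean of either group.

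In interferon gamma signalling, the pathway that drives IRG genes most strongly, 5 of 12 genes tested were higher and 0 lower, with a median of 0.34. Among them were the receptor chain Ifngr2 (log2 difference 0.33, limma adjusted p = 0.0311), the transcription factors Irf1 (0.36, 0.00344) and Batf2 (0.72, 0.0135), and the feedback inhibitor Socs1 (1.26, 0.0142). The kinases Jak1 and Jak2 and the receptor chain Ifngr1 had log2 differences of 0.02, 0.07 and 0.01 and did not pass. Ifng itself was too low to test, at a mean of 0.104 FPKM in IPF and 0.06 FPKM in sham lungs. Of 12 other interferon gamma response genes 4 were higher (median 0.45), namely the chemokine Cxcl10 (0.99, adjusted p = 0.0402), the immunoproteasome subunit Psmb9 (0.56, 0.0226) and the peptide transporters Tap1 (0.50, 0.00873) and Tap2 (0.30, 0.0443). Leaving out any single sample lowered this count, to between 1 and 3, with 1 without IPF replicate 1 or IPF replicate 4.

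In type I interferon signalling 5 of 9 genes tested were higher, with a median of 0.32. They were the receptor chain Ifnar2 (log2 difference 0.22, limma adjusted p = 0.0311), the factors Stat2 (0.32, 0.0287), Irf7 (0.82, 0.0462) and Irf9 (0.49, 0.0189), and the inhibitor Socs3 (0.35, 0.0254). The receptor chain Ifnar1, the kinase Tyk2 and the factor Irf3 had log2 differences of 0.04, 0.01 and 0.00 and did not pass. Ifnb1 was too low to test, at a mean of 0.0151 FPKM in IPF and 0 in sham lungs. Of 17 response genes 11 were higher (median 0.73), among them the ubiquitin-like modifier Isg15 (1.26, 0.0037), Rtp4 (1.06, 0.0018), the antiviral GTPase Mx1 (1.06, 0.0118) and the oligoadenylate synthetase Oas1a (1.01, 0.0134). Ifit2 (0.12, limma adjusted p = 0.598) and Ifit3 (0.27, 0.391) were among those that did not pass. Leaving out single samples changed the signalling count to between 1 and 5, with 1 without IPF replicate 2 or without sham replicate 2, and the response count to between 7 and 12, with 7 without either of those libraries.

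Of 10 autophagy conjugation genes, whose products deliver effectors to the vacuole, limma found 0 higher or lower, which in lists this short is near the 5.85% of all genes called. The groups did not overlap for Atg12 and Gabarapl2, with IPF above sham, as for 4.52% of all genes. The log2 differences of these 2 genes were 0.14 (limma adjusted p = 0.117) and 0.11 (0.232). The median of the 10 was 0.08, 2 had an unadjusted p under 0.05, and voom on the recovered reads gave 0. For scale, an unadjusted limma p of 0.0498 (Cd274) ranked 3980 by p among the 20448 genes tested. Of 7 ubiquitin ligases and adaptors tested, limma also found 0, with 2 at an unadjusted p under 0.05 and 1 by voom. The highest of these, Rnf213, had a log2 difference of 0.39 (adjusted p = 0.0859).

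**Figure D5:**
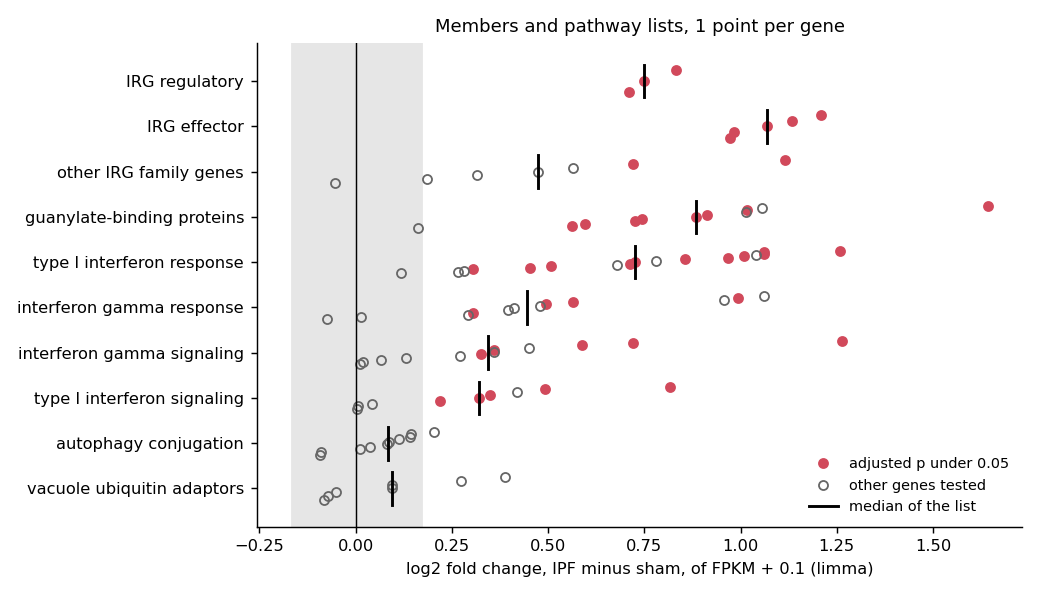
Log2 difference, IPF minus sham, of FPKM + 0.1 (horizontal axis) for every gene tested in the 2 IRG classes and 8 related lists, with filled red points at adjusted p under 0.05 by limma, bars at list medians and the quartile range of all genes in grey. Members of both classes and most guanylate-binding proteins lie to the right of the grey band, and autophagy conjugation genes lie in or near it.

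Markers of several leukocyte types were also higher in IPF, at an adjusted p limit that 3.71% of all genes passed in this direction. Within groups their median r with the members was -0.30 for B cells, 0.11 for T cells and 0.15 for NK cells. It was 0.31 for alveolar macrophages, 0.38 for monocytes, 0.60 for neutrophils and 0.10 for all genes. NK-cell markers were higher for 4 of 8 genes, with a summed level of 18.9 to 27.7 FPKM in IPF and 9.27 to 15.1 FPKM in sham lungs. B-cell markers were higher for 5 of 5 (32.8 to 48.7 against 17.7 to 28.8 FPKM) and monocyte markers for 4 of 6 (70.5 to 81.9 against 44.7 to 54.2 FPKM). Endothelial markers were higher for 1 of 7, Cldn5, with sums of 1139 to 1287 FPKM in IPF and 1005 to 1047 FPKM in sham lungs. Cldn5 itself, at means of 451 and 309 FPKM, was a large part of the change in these sums. The other endothelial markers had log2 differences from -0.05 (Pecam1) to 0.26 (Tek). T-cell markers were higher for 1 of 8 by limma, Cd4, and for 0 by voom, with 5 at an unadjusted p under 0.05, and their summed levels overlapped, at 19.1 to 25.1 and 12.1 to 19.2 FPKM. Neutrophil markers passed for 0 of 9 by limma and by voom, with 5 at an unadjusted p under 0.05, and ranged from 56.7 to 305 FPKM in IPF and from 17.0 to 89.0 FPKM in sham lungs. Beside these unadjusted counts, a limma p of 0.0498 (Cd274) ranked 3980 among all 20448 genes tested. Alveolar macrophage markers passed for 0 of 8 by limma, with sums of 285 to 477 FPKM in IPF and 258 to 445 FPKM in sham lungs. The part of these cell types in the IRG values was not tested. Thymus markers were near 0, at a sum of at most 0.469 FPKM in any lung.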

How the data were processed

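Whole-lung RNA of 10 mice, 5 IPF and 5 sham, was sequenced, with groups and replicate numbers from the sample titles. The authors' FPKM values were deposited as 1 column per sample. Fastp for trimming, HISAT2 for mapping and StringTie for quantification are named in the study's methods. The methods name GRCm39, but the gene positions are those of GRCm38, and the submitters' processing notes list hg38, GRCm38, mm10 and Bowtie 0.12.2. The methods name a KAPA kit and the labels a NEBNext Ultra kit.

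The reads behind each value were recovered by dividing FPKM times gene length by the step of 1 read in that sample, and every value came out whole (within 0.0001 read). The test was limma 3.58.1 (R 4.3.3) on log2(FPKM + 0.1), with a variance trend and no covariate, over genes at a mean of 0.1 FPKM or more, and p-values were adjusted by Benjamini-Hochberg over all genes tested. Fold changes on this scale understate those of low genes. The count test named in the study's methods was not run here, and limma voom on the recovered reads was an alternative. Tables were made in Python 3.11.15 with pandas 2.3.3. The script was tested on simulated data. The p-values measure the spread between these samples, 1 library per mouse as far as the labels say.

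The members and lists were chosen with earlier results of these data known. Named are all members, list genes past the test with up to 4 others per list, the 5 most alike genes, and genes that overlap members. The values of 1 gene that this rule names are not reported here, and not every list gene past the test is printed. Alternatives were other pseudocounts, filters and scalings, a replicate block, no trend, array weights, voom, autosomal genes, summed Tgtp genes and leaving out each sample. A ratio of summed FPKM, a pseudocount of 1 with the higher effectors, and leaving out a pair of samples were chosen after seeing the data.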

Additional observations from a re-analysis of the deposited data

Results flagged for a closer look

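In 34 groups of 5 samples, over the members and the other IRG family genes, the highest or lowest sample was compared with its nearest neighbour, and 4 stood further from it than 0.71 of the group's range. Chance gives about 1 in 20 groups. Iigp1 was high in IPF replicate 5, at 33.9 FPKM where the next sample had 24.9 FPKM. Ifi47 was low in sham replicate 1, at 6.92 FPKM where the next had 8.83 FPKM. Gm4841 was high in IPF replicate 5, at 0.458 FPKM against 0.317 FPKM for the next. Gm12187 was at 0.0441 FPKM in sham replicate 1, which is 1 read, and at 0 in the other sham samples, and a lone read among zeros always stands out by this measure.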

How the results depend on the processing

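At least 7 of the 8 members were called under every alternative that tested all 8, with 8 by voom on the recovered reads. At a mean FPKM of at least 1 all 6 members tested were called, and all 7 with the Tgtp genes added up. No member changed direction. Same-numbered samples had correlations of -0.02 to 0.10 between their deviations over all genes tested. Differently numbered samples were not compared, so whether the replicate numbers pair the samples was not tested. With the replicate block, which by construction leaves the log2 differences as they are, Gm4841 had a limma adjusted p of 0.0702, type I interferon signalling had 2 genes called in place of 5, and ubiquitin adaptors 1 in place of 0. Members past both limits numbered 3, with 0 at a pseudocount of 1 and 1 without sham replicate 1 and IPF replicate 5. Leaving out single samples gave 3 to 5, with 5 without IPF replicate 1 or sham replicate 5. Of the other IRG family genes 2 were called, with 1 at no filter, at a mean FPKM of at least 1 and without that pair of samples, and 1 to 2 when single samples were left out. Type I interferon signalling had 1 call with no variance trend, 3 without that pair and 1 to 5 over single samples. The interferon gamma response list had 4 calls, 2 with no filter, 2 with no trend and 1 to 3 over single samples, with 1 without IPF replicate 1 or IPF replicate 4. The type I response list had 7 to 12 over single samples, and ubiquitin adaptors 1 with array weights, 1 with voom and 0 to 1 over single samples. The guanylate-binding proteins stayed at 8 whichever single sample was left out. The change in the gap between regulatory and effector means was -0.31, with -0.0387 at a pseudocount of 1, -0.43 at 0.01, and -0.33 to -0.28 over single samples. The cause of these shifts was not tested. Depth limits Gm4841 and Tgtp1, with at most 23 and 89 reads per sample.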
